A study of Homo sapiens with 9 samples.

Results

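The proteasome genes of K562 cells, a human erythroleukaemia line, were described in 9 RNA-seq libraries. Members were the protein-coding genes whose GENCODE symbol is PSMA, PSMB, PSMC, PSMD, PSME, PSMF or PSMG followed by a number. The rule gave 48 genes among the 58347 gene IDs of the table, of which 19817 are protein-coding. They comprise 19 core genes (8 PSMA, 11 PSMB), 20 cap genes (6 PSMC, 14 PSMD), 4 activator genes (PSME), 1 inhibitor gene (PSMF1) and 4 assembly genes (PSMG). The rule used symbols only and no measured value.

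All cells stably expressed a recruitment system of 3 parts, each driven by an EF1a promoter: dCas9, a nuclease-dead Cas9 that stays on DNA at its guide's site, MS2-Fkbp, and SS18-Frb. SS18 is a subunit of BAF, a chromatin remodelling complex. Rapamycin joins Fkbp to Frb, and it also inhibits the kinase complex mTORC1 in any cell. Cells carried an sgRNA to the promoter of HBG1, a fetal globin gene, or a non-targeting sgRNA, and received 10 nM rapamycin or DMSO, the solvent, for 24 h. With the HBG1 sgRNA there were 3 DMSO and 3 rapamycin libraries. With the non-targeting sgRNA there were 2 rapamycin libraries, numbered 1 and 2, and a single DMSO library, numbered 2. The study asked whether recruited BAF could switch on HBG1. The labels do not say whether replicates were separate cultures or whether the line was a single clone, so p-values measure the spread between these libraries, which may be technical.

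The proteasome is the protease that degrades ubiquitin-tagged proteins. Its barrel-shaped core has outer rings of alpha subunits (PSMA), which gate the entrance, and inner rings of beta subunits (PSMB), some of which cut peptide bonds. A cap sits on the end of the core, and its PSMC subunits form a ring of ATPases that unfolds substrates and feeds them in. Some of its PSMD subunits bind or remove ubiquitin, and others are structural. The symbol rule also counts PSMD genes such as PSMD10, a chaperone of cap base assembly, as cap genes. PSME proteins are alternative activators that dock on the core in place of the cap, PSMF1 is a core-binding inhibitor, and PSMG proteins are chaperones that build the alpha ring. Proteasome genes are known to be transcribed together, through the factor NFE2L1 among others, and mTORC1 signalling has been linked to their transcription.

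The libraries held 19797409 to 31619671 counts, and the proteasome genes took 0.555% to 0.682% of them. Both HBG1 sgRNA replicate 1 libraries stood apart from replicates 2 and 3: chi-square per gene was 16.5 to 18.6 against them, and 4.74 and 7.91 between replicates 2 and 3. All 9 K562 markers examined were expressed, with summed levels of 9950 to 19800 CPM with the HBG1 sgRNA and 5310 to 7210 CPM with the non-targeting sgRNA. Among them the globin gene HBE1 stood at 6597 to 14590 CPM with the HBG1 sgRNA and 2030 to 2979 CPM with the non-targeting sgRNA. CPM, the level used throughout, is a gene's share of its library's counts on a fixed scale, with TMM factors that even out library composition. Of 13 markers of other cell types, 9 passed the low-count filter, and CD3E, MS4A1, ALB and CDH5 were at or near 0. Mean levels over the libraries were highest for KRT19 (63.05 CPM), EPCAM (42.2), LYZ (20.5) and COL1A2 (13.6), and CD3D stood at 5.2. COL1A2 ranged from 3.01 to 24.8 CPM between libraries. KRT19 was called higher with rapamycin and the HBG1 sgRNA (log2 fold change 0.31, edgeR adjusted p = 0.0441), the only call among the 9. The sum of the 13 was 133 to 153 CPM with the HBG1 sgRNA and DMSO, 159 to 177 CPM with the HBG1 sgRNA and rapamycin, 150 CPM with the non-targeting sgRNA and DMSO, and 148 to 164 CPM with that sgRNA and rapamycin. The part of these markers in the results below was not tested.

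Of the 48 genes, 46 passed the low-count filter. The other 2 are tissue-restricted core genes. PSMA8, an alpha subunit of the testis, had 6 counts over the 9 libraries, with no more than 3 in any library, and PSMB11, the beta subunit of thymic cortex, had 3 counts, all in HBG1 sgRNA rapamycin replicate 3. With at most 3 counts in a library, expression of neither was detectable at this depth.

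The highest levels per length were those of core genes, although other core genes lay below cap genes. On the scale of CPM per kb of the gene's median coding transcript, averaged over the 9 libraries, PSMB1 stood at 281, PSMA4 at 226, PSMA7 at 224 and PSMB4 at 222. The ranges over libraries of these 4 genes overlapped (PSMB1 247 to 323, PSMB4 194 to 256). Within every library, however, PSMB1 lay above PSMA4, PSMA7 and PSMB4 on this scale. The order of PSMA4, PSMA7 and PSMB4 changed between libraries and is not resolved. PSMA5 and PSMB6, also core genes, stood at 64.5 and 64.9 per kb. PSMD7, a structural subunit of the cap lid, was the highest cap gene at 151 per kb, and PSMC3 was the highest ATPase at 121 per kb, both above PSMA5 and PSMB6. The activators ran from 23.1 (PSME4) to 64.7 (PSME3) per kb and the assembly chaperones from 51.4 (PSMG3) to 67.2 (PSMG4) per kb. With all annotated exon bases as the length, PSMB3 led at 119.9 CPM per kb, followed by PSMA7 at 118 and PSMB1 at 116, and PSMA4 dropped to 30.6, so single ranks depend on the length used.

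The 3 catalytic beta subunits and their inducible partners formed separate levels. PSMB5, PSMB6 and PSMB7 carry the active sites of the standard core, and interferon-inducible PSMB8, PSMB9 and PSMB10 replace them in the immunoproteasome. Per kb of median coding transcript, PSMB5 stood at 108, PSMB6 at 64.9 and PSMB7 at 187. PSMB10 stood at 17.0 on that scale, PSMB8 at 0.98 and PSMB9 at 1.05. In every library each of the 3 inducible genes lay below each of the 3 standard ones: the highest PSMB10 value was 21.3 and the lowest PSMB6 value 55.4. PSMB8 and PSMB9 overlap each other, PSMB8-AS1 and, for PSMB9, TAP1, and PSMB9 shares its strand with PSMB8-AS1, so their low counts cannot be assigned with certainty. PSMB10 overlaps another annotated protein-coding gene on its own strand, AC040162.1, so its counts and its place in this order are uncertain too.

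**Figure D1:**
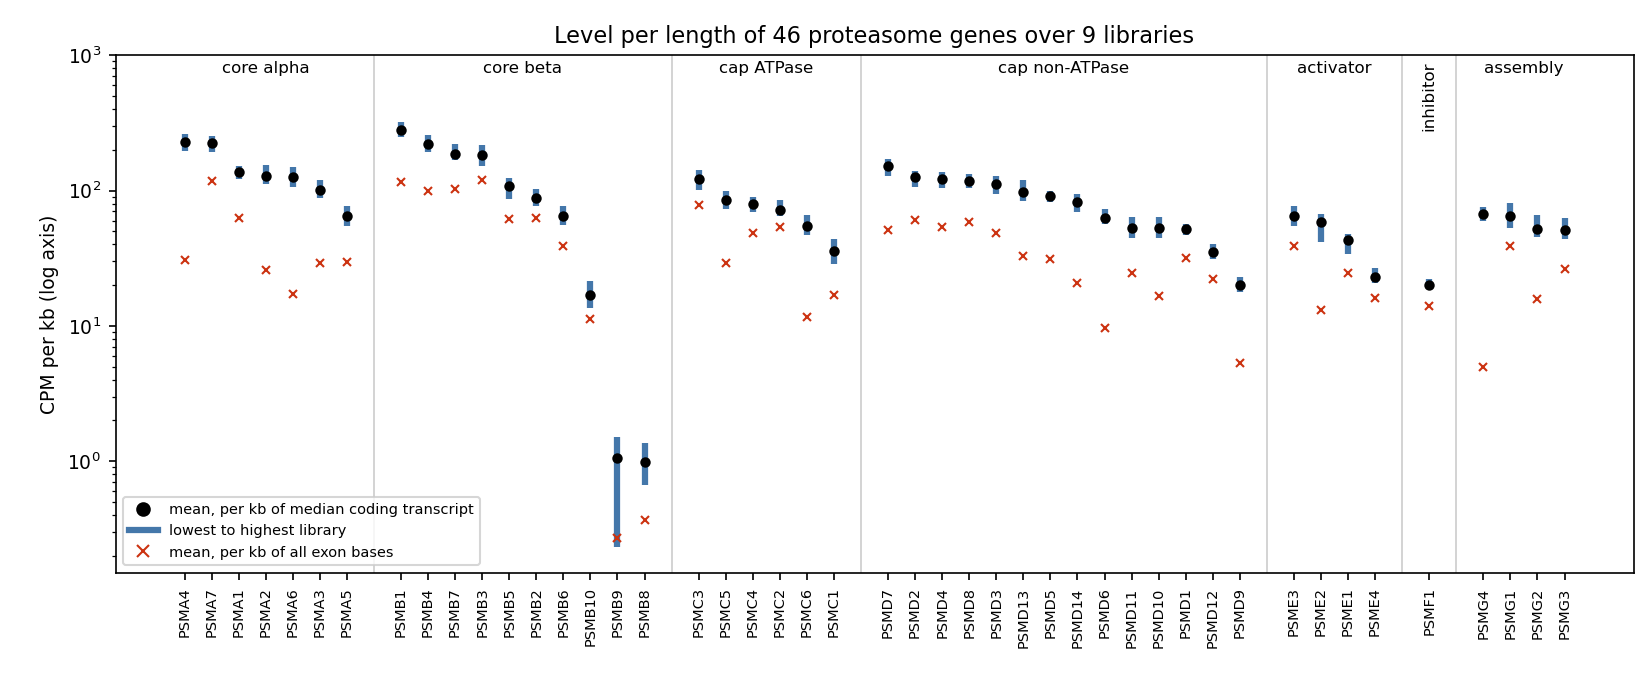
Level per length of the 46 tested proteasome genes, as CPM per kb on a log axis. Black points are means over the 9 libraries per kb of the median coding transcript, blue bars run from the lowest to the highest library, and red crosses are means per kb of all annotated exon bases. PSMB8 and PSMB9 lie near 1 CPM per kb, below every other gene plotted.

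Rapamycin against DMSO with the HBG1 sgRNA was the main comparison. PSME3, an activator of nuclear proteasomes, fell by 0.42 on the log2 scale (SE 0.066), or 25.4%. PSMD11, PSMD3 and PSMD12, subunits of the cap lid, fell by 0.39 (SE 0.068), 0.32 (SE 0.068) and 0.29 (SE 0.070). PSMD2, a scaffold of the cap base, and PSMB2, a non-catalytic beta subunit of the core, each fell by 0.26 (SE 0.070 and 0.075). None was called higher. In all, 6 of 46 tested genes (13.0%) were called at an edgeR adjusted p under 0.05, where 4.05% of all 23675 tested genes were called lower, 2.75% higher and 6.8% in either direction.

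Most proteasome genes are well expressed, which makes a small change easier to call, so a second background is needed. Among the 6436 genes whose mean log2 CPM was 5 or more, 12% were called lower, and among the 43 proteasome genes at that level 14.0% were. That level is a floor and does not match expression gene by gene. Above it the called share in this fit was close to the background. Direction was more uniform than the calls: 42 of 46 genes (91.3%) had a negative log2 fold change, against 47.7% of all tested genes and 64.6% of the well-expressed ones. The median log2 fold change was -0.15 over the proteasome genes, 0.02 over all tested genes and -0.07 over the well-expressed ones. These shares are descriptions, since genes of a family are not independent of each other. In bulk RNA, fewer cells of a type and less RNA per cell cannot be told apart.

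Replicate numbers were taken to pair the HBG1 sgRNA libraries, although the correlations given under processing did not separate replicates 2 and 3 from each other. A fit with the replicate number as a block called 15 of the 46 genes (32.6%), all lower. That fit called 9.62% of all genes and 23.6% of the well-expressed genes lower, and 7.43% of all genes higher. It kept the 6 genes above and added PSMA5, PSMB5, PSMB6, PSMC3, PSMC4, PSMD1, PSMD8, PSMD13 and PSMG1. Among the 43 proteasome genes at a mean log2 CPM of 5 or more, the share called was 34.9% with the block and 44.2% with a model of one rapamycin effect for both guides. Both lay further above the well-expressed background than the share of the unblocked fit did. That second model called 19 genes lower (41.3%), where 7.8% of all genes and 21.8% of the well-expressed ones were called lower and 5.98% of all genes higher. It had the same 15 genes and added PSMC2, PSMC5, PSMD7 and PSMG3. The main count of 6 was sensitive to single libraries, as was the share over all genes, of which the main fit called 4.05% lower. The count was 2 without HBG1 sgRNA DMSO replicate 2, where 1.66% of all tested genes were called lower. Without HBG1 sgRNA rapamycin replicate 3 it was 2 (1.7% of all). It was 11 without HBG1 sgRNA rapamycin replicate 1 (4.35% of all) and 11 with both replicate 1 libraries left out (5.17% of all).

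**Figure D2:**
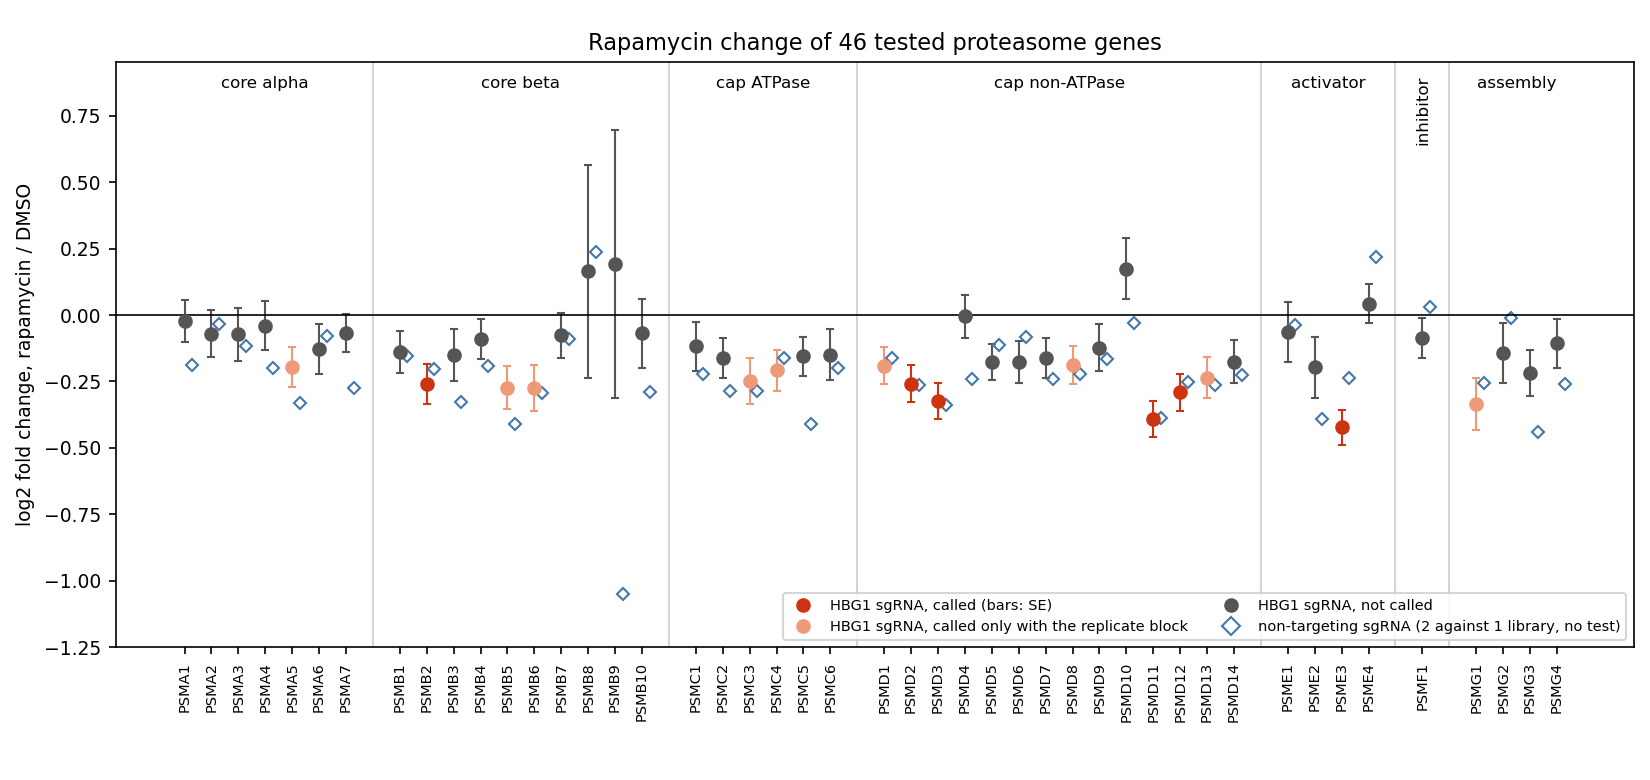
Log2 fold change of rapamycin against DMSO for the 46 tested proteasome genes by family. Filled points with SE bars are the HBG1 sgRNA (3 against 3 libraries), in red where called, light red where called only with the replicate block and grey otherwise, and open diamonds are the non-targeting sgRNA (2 against 1 library, no test). All called genes lie below 0, and PSME3 has the most negative HBG1 sgRNA value at -0.42.

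PSME3 stood at 228, 237 and 222 CPM in HBG1 sgRNA DMSO replicates 1 to 3 and at 171, 169.6 and 172 CPM in the rapamycin replicates. The arms did not overlap, and rapamycin lay lower in each pair (edgeR adjusted p = 0.00142). With the non-targeting sgRNA it stood at 220.2 CPM in DMSO and at 189 and 184 CPM in rapamycin. Both rapamycin libraries lay below the DMSO library there, and above all 3 HBG1 sgRNA rapamycin libraries. PSME3 was not called between the guides under rapamycin (HBG1 against non-targeting sgRNA, log2 fold change -0.13, SE 0.074, edgeR adjusted p = 0.796). PSME3 lies at chr17:42824385-42843758 and overlaps BECN1 on the other strand, so reads of the 2 genes cannot be told apart unless strand was used in counting.

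PSMD11 stood at 188, 203 and 205 CPM in the HBG1 sgRNA DMSO replicates and at 148, 152 and 155 CPM in rapamycin. It was lower in 3 of 3 pairs with no overlap (edgeR adjusted p = 0.00299). The non-targeting libraries gave 212 CPM in DMSO and 164 and 162 CPM in rapamycin, a log2 fold change of -0.39 beside -0.39 with the HBG1 sgRNA. PSMD11 lies at chr17:32444261-32483318, and an antisense transcript, AC005899.8, overlaps it. PSME3 and PSMD11 kept their call in all 18 alternative fits run.

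PSMD3 stood at 268, 274 and 277 CPM in the HBG1 sgRNA DMSO replicates and at 225, 225 and 205 CPM in rapamycin (edgeR adjusted p = 0.00946). With the non-targeting sgRNA it stood at 266 CPM in DMSO and at 213 and 208 CPM in rapamycin. With either guide every rapamycin library lay below every DMSO library, of which the non-targeting sgRNA had 1. Both non-targeting rapamycin libraries lay below that library for 35.4% of all tested genes and 52% of the well-expressed ones. The gene lies at chr17:39980797-39997960 and overlaps no other annotated gene. The call was lost without HBG1 sgRNA DMSO replicate 2 (edgeR adjusted p = 0.0517) and without HBG1 sgRNA rapamycin replicate 3 (edgeR adjusted p = 0.0655).

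PSMD12 stood at 138, 136 and 130.1 CPM in the HBG1 sgRNA DMSO replicates and at 114, 106 and 109 CPM in rapamycin (edgeR adjusted p = 0.0197). The non-targeting values were 128 CPM in DMSO and 107 CPM in both rapamycin libraries. The HBG1 sgRNA arms did not overlap, and both non-targeting rapamycin libraries lay below the single DMSO library. PSMD12, at chr17:67337916-67366627, overlaps no annotated gene but has 1 pseudogene copy, with which reads could have been shared. The call was lost without HBG1 sgRNA DMSO replicate 2 (edgeR adjusted p = 0.0878), rapamycin replicate 2 (0.0532) and rapamycin replicate 3 (0.0797).

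PSMD2 stood at 344, 369 and 364 CPM in the HBG1 sgRNA DMSO replicates and at 279, 309 and 311 CPM in rapamycin (edgeR adjusted p = 0.0341). Non-targeting libraries held 369 CPM in DMSO and 307 and 308 CPM in rapamycin. PSMB2 stood at 357, 327 and 319 CPM in the HBG1 sgRNA DMSO replicates and at 303, 266 and 268 CPM in rapamycin (edgeR adjusted p = 0.0489). In the non-targeting libraries it was 327 CPM in DMSO and 278 and 290.0 CPM in rapamycin. HBG1 sgRNA arms of neither gene overlapped, but these calls lay near the threshold. PSMD2 kept its call in 9 of 18 alternative fits, with edgeR adjusted p up to 0.15, and PSMB2 in 7 of 18, up to 0.178. PSMD2 lies at chr3:184298709-184309054 and PSMB2 at chr1:35599544-35641844, and neither overlaps another annotated gene.

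**Figure D3:**
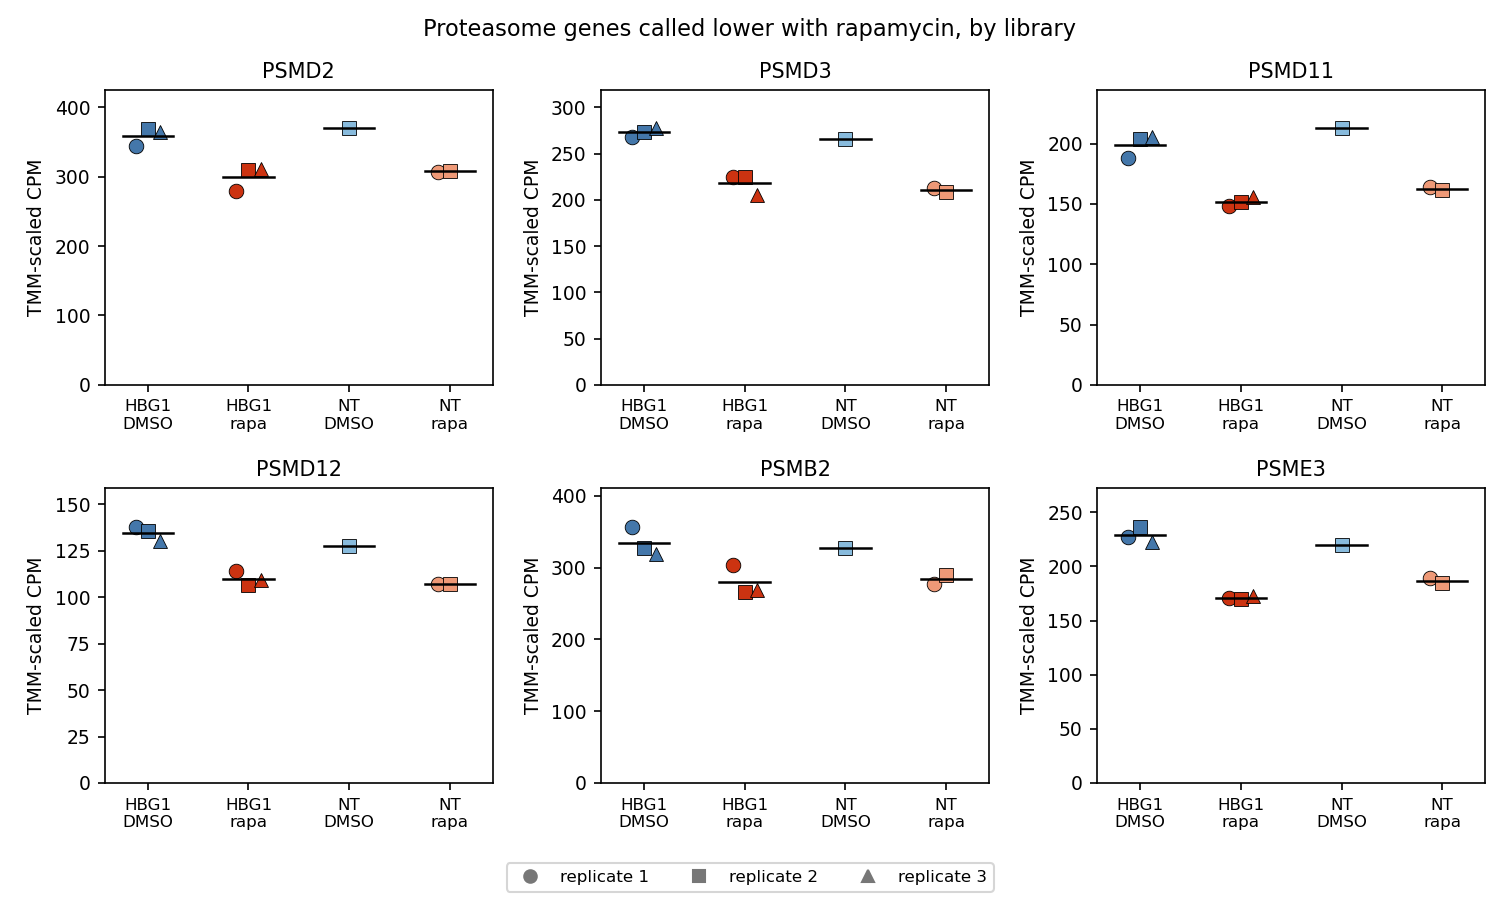
TMM-scaled CPM of the 6 proteasome genes called lower with rapamycin, by library, with axes from 0. Symbols mark the replicate number, black bars are group means, NT is the non-targeting sgRNA and rapa is rapamycin. In each panel every rapamycin library lies below every DMSO library of the same guide, and NT has a single DMSO library.

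The 250 bases before the start of the 4 genes called lower under the most alternative fits are shown, since proteasome promoters are known to carry shared control elements. They were read from RefSeq (GRCh38.p14) and run in each gene's direction: PSME3 at chr17:42833147-42833396 (plus strand), PSMD11 at chr17:32444260-32444509 (plus), PSMD3 at chr17:39980557-39980806 (plus) and PSMD12 at chr17:67366578-67366827 (minus). Capitals mark matches of TGACNNNGC, the core of the antioxidant response element that NFE2L1 binds, or of CCAAT, the box bound by NF-Y, on either strand. GENCODE 29 starts PSME3 and PSMD11 upstream of RefSeq, so these stretches lie wholly or nearly wholly within the GENCODE gene spans.
PSME3: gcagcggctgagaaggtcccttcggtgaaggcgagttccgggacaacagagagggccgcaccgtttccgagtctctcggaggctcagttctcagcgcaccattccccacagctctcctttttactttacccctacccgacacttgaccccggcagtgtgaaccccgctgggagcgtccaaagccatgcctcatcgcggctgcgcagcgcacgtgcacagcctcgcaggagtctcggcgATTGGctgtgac
PSMD11: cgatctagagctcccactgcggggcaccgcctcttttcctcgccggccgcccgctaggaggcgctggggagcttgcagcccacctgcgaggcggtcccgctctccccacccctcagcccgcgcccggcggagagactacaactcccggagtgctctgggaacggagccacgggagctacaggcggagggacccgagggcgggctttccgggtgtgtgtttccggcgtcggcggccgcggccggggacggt
PSMD3: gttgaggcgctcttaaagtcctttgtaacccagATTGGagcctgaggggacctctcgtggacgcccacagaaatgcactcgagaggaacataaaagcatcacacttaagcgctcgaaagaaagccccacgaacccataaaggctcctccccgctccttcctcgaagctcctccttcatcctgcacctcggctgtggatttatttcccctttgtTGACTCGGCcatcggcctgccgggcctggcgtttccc
PSMD12: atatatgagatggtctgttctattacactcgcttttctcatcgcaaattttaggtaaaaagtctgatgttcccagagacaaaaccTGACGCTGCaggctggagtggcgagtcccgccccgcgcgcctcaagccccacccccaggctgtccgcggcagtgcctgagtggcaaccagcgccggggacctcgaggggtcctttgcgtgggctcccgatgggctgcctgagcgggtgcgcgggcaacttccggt

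PSMD3 held a TGACNNNGC match 37 bases before its start and PSMD12 one 165 bases before. PSMD3 held a reverse-strand CCAAT match 217 bases before its start, PSME3 one 12 bases before, and PSMD11 neither motif. RefSeq promoters were matched for 42 of the 48 genes, all but PSMA7, PSMB1, PSMB6, PSMB7, PSMD4 and PSMG3. TGACNNNGC occurred in 11 of the 42 (26.2%), against 11% of 27305 promoters of the same length and 12.1% of those of tested genes. By family it occurred in 3 of 4 activator, 2 of 3 assembly, 4 of 13 PSMD and 2 of 8 PSMB promoters, and in 0 of 6 PSMC and 0 of 7 PSMA promoters. CCAAT occurred in 18 of 42 (42.9%, against 33.0% of all), TCACNCCAC, the sterol regulatory element, in 1 of 42 (2.4% against 0.9%), and CACGTG, the E-box, in 3 of 42 (7.1% against 6.5%). Among promoters of tested genes these shares were 34.7% for CCAAT, 0.8% for TCACNCCAC and 8.6% for CACGTG, the last above that of the members. Of the genes called lower with the replicate block 3 of 14 held TGACNNNGC, and of the tested genes not so called 8 of 26 did. These matches describe letters in a window and not bound sites.

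By family, more of the calls with the HBG1 sgRNA fell in the cap than in the core. Of 20 cap genes, 4 were called lower (20%) and 19 had a negative log2 fold change, with a median of -0.18. Of 17 tested core genes, 1 was called lower (5.88%) and 15 were negative, with a median of -0.08. Among all tested genes 4.05% were called lower, and among the well-expressed ones 12%. With the replicate block 9 of 20 cap genes (45%) and 4 of 17 core genes (23.5%) were called. That fit called 9.62% of all genes and 23.6% of the well-expressed ones lower. The core shares did not exceed those of the well-expressed genes in either fit. Per family the block called 14.3% of tested PSMA, 30% of PSMB, 33.3% of PSMC, 50% of PSMD, 25% of PSME and 25% of PSMG genes. HBG1 sgRNA arms did not overlap, with rapamycin lower, for 13 of 20 cap genes and 4 of 17 core genes. Over all 46 genes this held for 20 (43.5%), against 13.1% of all tested genes and 29.3% of the well-expressed ones, and no proteasome gene had non-overlapping arms with rapamycin higher, where 12.2% of all genes did. A gene was lower in each of the 3 pairs for 31 of 46 members (67.4%), against 22.4% of all genes and 44.0% of the well-expressed ones. The difference between cap and core was not tested, because the genes were not sampled independently.

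Core alpha genes had the median nearest 0 of the core and cap families, at -0.07. None of 7 tested was called by the main edgeR fit or by DESeq2, and the block called 1 of 7, PSMA5. In edgeR 1 had an unadjusted p under 0.05, which 20.8% of all tested genes reached. PSMA5 had the lowest value, with 202, 186 and 174 CPM in HBG1 sgRNA DMSO and 168, 154 and 168 CPM in rapamycin (log2 fold change -0.20, SE 0.075, edgeR adjusted p = 0.139, and 0.0421 with the block). Its arms did not overlap. PSMA1 had the highest, with 228, 216 and 192 CPM in DMSO and 224, 198 and 205 CPM in rapamycin (log2 fold change -0.02, SE 0.079). The arms of PSMA1 overlapped. It shares its strand and span with another annotated protein-coding gene, AC018523.2, so its counts are uncertain.

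Among the 10 tested core beta genes, 1 was called (PSMB2) and the median was -0.11. The block called 3 of 10, adding the catalytic PSMB5 and PSMB6. PSMB5, the chymotrypsin-like subunit, stood at 125, 121 and 119 CPM in HBG1 sgRNA DMSO and at 109, 92.1 and 101 CPM in rapamycin, with no overlap (log2 fold change -0.27, SE 0.080, edgeR adjusted p = 0.0528, and 0.00577 with the block). PSMB6, the caspase-like subunit and the lowest of the family by log2 fold change, stood at 65.9, 62.5 and 57.8 CPM in DMSO and at 53.3, 53.1 and 47.7 CPM in rapamycin (log2 fold change -0.28, SE 0.087, edgeR adjusted p = 0.0709, and 0.0122 with the block). Its arms did not overlap either. PSMB7, the trypsin-like subunit, stood at 216, 180.3 and 186 CPM in DMSO and at 200.2, 174 and 178 CPM in rapamycin, and its arms overlapped (log2 fold change -0.08, SE 0.083).

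The inducible beta genes gave no call and no unadjusted p under 0.05 by edgeR. PSMB10 stood at 25.9, 21.1 and 19.0 CPM in HBG1 sgRNA DMSO and at 23.6, 20.7 and 19.0 CPM in rapamycin (log2 fold change -0.07, SE 0.131). PSMB8 stood at 0.745, 1.29 and 1.28 CPM in DMSO and at 1.19, 1.52 and 1.01 CPM in rapamycin. PSMB9 stood at 0.907, 0.628 and 1.13 CPM in DMSO and at 1.19, 1.04 and 0.812 CPM in rapamycin. All of these arms overlapped. PSMB8 and PSMB9 had the widest errors of the members, with SEs of 0.401 and 0.504, so only changes larger than those of any called proteasome gene would have been detectable for them.

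The 6 cap ATPase genes were all negative, with a median of -0.16, and none was called by the main edgeR fit. An unadjusted edgeR p under 0.05 was reached by 3 of them and by 20.8% of all tested genes. DESeq2 called PSMC3, and the block called PSMC3 and PSMC4. PSMC3, the lowest, stood at 207, 186 and 198 CPM in HBG1 sgRNA DMSO and at 188, 149 and 160.4 CPM in rapamycin (log2 fold change -0.25, SE 0.086, edgeR adjusted p = 0.101, and 0.00745 with the block). Its arms overlapped through rapamycin replicate 1 alone. PSMC1, the highest, stood at 127, 107 and 104 CPM in DMSO and at 108, 97.9 and 106 CPM in rapamycin (log2 fold change -0.12, SE 0.091). PSMC1 has 13 annotated pseudogene copies, the most of any member.

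The 14 PSMD genes held 4 of the 6 calls, a median of -0.18 and 11 genes with an unadjusted edgeR p under 0.05. That p was reached by 20.8% of all tested genes and by 2417 of the 6436 well-expressed ones. The block called 7 of 14. HBG1 sgRNA arms did not overlap for 11 of 14, all lower with rapamycin. PSMD10, a chaperone of cap base assembly, was the only PSMD gene above 0, with 44.6, 34.5 and 40.4 CPM in DMSO and 49.8, 38.0 and 47.1 CPM in rapamycin (log2 fold change 0.17, SE 0.114, edgeR adjusted p = 0.422). Rapamycin was higher in each of its 3 pairs, but the arms overlapped. PSMD4, a ubiquitin receptor, had a value near 0 (log2 fold change -0.01, SE 0.082).

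Of the 4 activators 3 had a negative log2 fold change, and the values of PSME1 and PSME4 lay within 1 SE of 0. PSME3 was called lower, as above. PSME1 and PSME2 together form the interferon-inducible activator. PSME1 stood at 47.1, 43.1 and 45.8 CPM in HBG1 sgRNA DMSO and at 46.5, 34.8 and 48.8 CPM in rapamycin (log2 fold change -0.06, SE 0.112), and PSME2 at 54.4, 49.7 and 50.9 CPM in DMSO and at 50.01, 43.1 and 42.3 CPM in rapamycin (log2 fold change -0.20, SE 0.115). The arms of both overlapped. PSME4, a large single-chain activator, stood at 147, 163 and 156 CPM in DMSO and at 149.9, 164 and 165 CPM in rapamycin. Its arms overlapped, and its log2 fold change was 0.04 (SE 0.073), the highest value of the family. PSMF1, the inhibitor, had a log2 fold change of -0.09 (SE 0.076), with 72.5, 81.5 and 77.9 CPM in DMSO and 73.2, 71.5 and 73.5 CPM in rapamycin.

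All 4 assembly genes were negative, with a median of -0.18, and each was lower in all 3 pairs. None was called by the main edgeR fit, although 2 had an unadjusted p under 0.05, which 20.8% of all tested genes reached. DESeq2 and the block called PSMG1. PSMG1 stood at 124, 109.8 and 109 CPM in HBG1 sgRNA DMSO and at 107, 80.3 and 85.3 CPM in rapamycin (log2 fold change -0.33, SE 0.098, edgeR adjusted p = 0.0515, and 0.00146 with the block). Its arms did not overlap. PSMG4, the highest of the family, stood at 56.8, 56.4 and 48.6 CPM in DMSO and at 54.2, 48.3 and 48.0 CPM in rapamycin (log2 fold change -0.11, SE 0.091), with overlapping arms.

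Summed over all 48 genes, proteasome RNA stood at 6983, 6550 and 6428 CPM in HBG1 sgRNA DMSO replicates 1 to 3 and at 6225, 5620 and 5880 CPM in rapamycin. The pairs changed by -10.8%, -14.2% and -8.5%, and the arms did not overlap. The cap sum was 3307, 3170 and 3153 CPM in DMSO and 2886, 2700 and 2777 CPM in rapamycin (pairs -12.7%, -14.8% and -11.9%). The core alpha sum was 1318, 1185 and 1123 CPM in DMSO and 1228, 1046 and 1159 CPM in rapamycin (pairs -6.9%, -11.8% and 3.2%), with overlapping arms. The core beta pairs changed by -10.6%, -13% and -9%, and the assembly pairs by -9.2%, -20% and -14.1%. The ratio of cap to core summed CPM was lower with rapamycin in each pair, at 1.17 and 1.12, 1.25 and 1.22, and 1.28 and 1.17 for DMSO and rapamycin. Across pairs the ratios of the arms overlapped, with replicate 1 lowest in both arms.

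**Figure D4:**
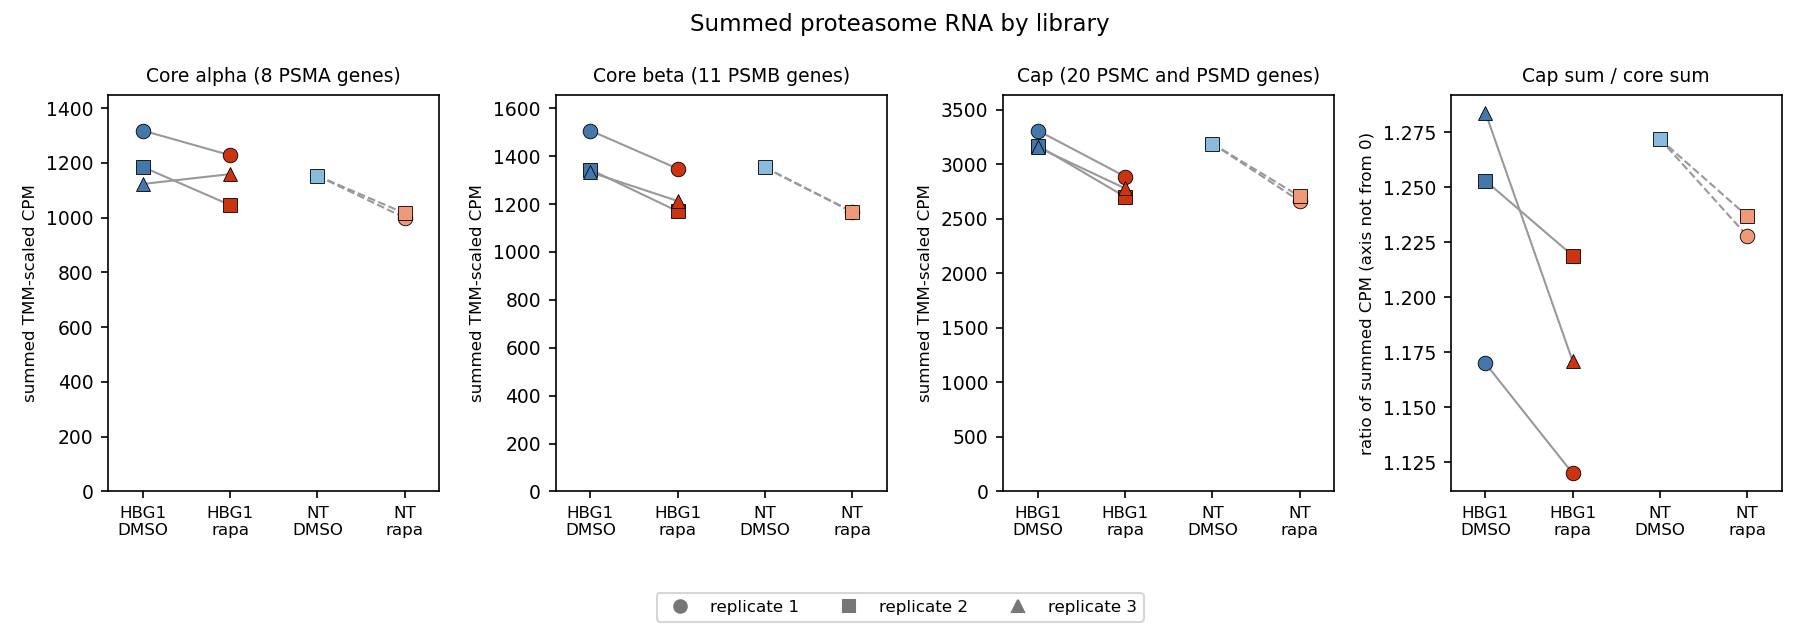
Summed TMM-scaled CPM of the core alpha, core beta and cap genes in each library, with axes from 0, and the ratio of cap to core sums, whose axis does not start at 0. Solid lines join HBG1 sgRNA libraries of the same replicate number, and dashed lines join the single non-targeting (NT) DMSO library to both NT rapamycin libraries. The cap sum is lower with rapamycin in all 3 pairs, and the core alpha sum of replicate 3 is 1123 CPM in DMSO and 1159 CPM in rapamycin.

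With the non-targeting sgRNA, rapamycin was compared with DMSO as values only, since DMSO had 1 library. The log2 fold change was negative for 43 of 46 genes, with a median of -0.23, against 0.03 over all tested genes and -0.06 over the well-expressed ones, 61% of which were negative. Both rapamycin libraries lay below the DMSO library for 41 of 46 genes (89.1%), where this held for 35.4% of all tested genes and 52% of the well-expressed ones. The proteasome sum was 6516 CPM in DMSO and 5587 and 5649 CPM in rapamycin (-14.3% and -13.3%). The median was -0.23 over the cap genes and -0.20 over the core genes, beside -0.18 and -0.08 with the HBG1 sgRNA. Both rapamycin libraries lay below the DMSO library for 20 of 20 cap genes and 16 of 17 tested core genes. The core alpha median was -0.19, and the core alpha sum was 1153 CPM in DMSO and 999.7 and 1016 CPM in rapamycin. The cap to core ratio was 1.27 in DMSO and 1.23 and 1.24 in rapamycin. The activator sum was 477 CPM in DMSO and 453 and 459 CPM in rapamycin, with PSME4 at 160.3 CPM in DMSO and 190.1 and 183 CPM in rapamycin.

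Whether the guide itself moved proteasome genes was asked by comparing the HBG1 with the non-targeting sgRNA under rapamycin. None of 46 genes was called by edgeR (smallest adjusted p = 0.773) or by DESeq2, where edgeR called 0.0296% of all tested genes (0.0127% lower and 0.0169% higher). At an unadjusted edgeR p under 0.05 there were 4 genes, named here after their values were seen: PSMA5 (0.19, SE 0.084), PSMA7 (0.18, SE 0.081) and PSMD4 (0.21, SE 0.092) were higher and PSME4 (-0.22, SE 0.081) was lower with the HBG1 sgRNA on the log2 scale. That p was reached by 6.27% of all tested genes, so 4 of 46 is near the background. The log2 fold change was positive for 37 of 46 genes (80.4%), against 51.6% of all tested genes and 50.2% of the well-expressed ones. The median was 0.10 against 0.01 over all tested genes, and the value was positive for 7 of 7 PSMA genes, with a median of 0.19. The HBG1 sgRNA core alpha sums under rapamycin, 1046 to 1228 CPM, lay above the non-targeting sums of 999.7 and 1016 CPM. The summed K562 markers, which include globin genes, also differed between the guides, as given above. Of the 9 markers 1 was called in this comparison, the globin gene HBE1 (log2 fold change 1.89, SE 0.270, edgeR adjusted p = 0.0122). Its mean under rapamycin was 9945 CPM with the HBG1 sgRNA and 2690 CPM with the non-targeting sgRNA. The part of these markers in the proteasome values was not tested.

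The interaction compared the rapamycin changes of the 2 guides with each other. None of 46 genes was called by edgeR or DESeq2, and none had an unadjusted p under 0.05 (smallest edgeR adjusted p = 1), where edgeR called 0.00422% of all tested genes. The median was 0.04. This comparison rests on the single non-targeting DMSO library, for which the fit assumes the spread of the remaining groups. PSME3 gave -0.18 (SE 0.119) and PSMD11 -0.01 (SE 0.123) on the log2 scale, and the SEs of both exceed those of the HBG1 sgRNA comparison.

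Other genes of the pathway were taken from fixed lists. Of 19 proteasome-bound factors, 3 (15.8%) were called lower and none higher with rapamycin and the HBG1 sgRNA, near the 12% called lower among well-expressed genes. UCHL5, a deubiquitinase of the cap, stood at 159, 143 and 136 CPM in DMSO and at 117, 108 and 109.7 CPM in rapamycin (log2 fold change -0.40, SE 0.076, edgeR adjusted p = 0.00598). PITHD1, a proteasome-associated protein, had a log2 fold change of -0.32 (SE 0.073, edgeR adjusted p = 0.0145), a call lost in 3 of 18 alternative fits (edgeR adjusted p up to 0.0644, without HBG1 sgRNA DMSO replicate 2). UBQLN1, a shuttle that carries ubiquitinated proteins to the proteasome, had -0.26 (SE 0.070, edgeR adjusted p = 0.0344), a call lost in 9 of 18 alternative fits (edgeR adjusted p up to 0.139, without HBG1 sgRNA DMSO replicate 3). The block called 10 of the 19 (52.6%), all lower, where it called 23.6% of the well-expressed genes lower. Among the cap subunits with other names, ADRM1, the receptor that holds UCHL5, had -0.21 (edgeR adjusted p = 0.0688, and 0.0184 with the block) and SEM1 had -0.04. POMP, the maturation factor of the core, had -0.18 (edgeR adjusted p = 0.446).

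Of 17 genes that control proteasome transcription, 1 was called lower and 1 higher, where 4.05% and 2.75% of all tested genes were. SREBF1, a sterol-responsive factor, fell from 164 ± 6.48 to 132 ± 10.1 CPM (SD, n = 3 each; log2 fold change -0.32, edgeR adjusted p = 0.0183). MAFF, a small partner of NFE2L1, rose from 7.01 ± 1.36 to 10.7 ± 0.878 CPM (SD, n = 3 each; log2 fold change 0.62, edgeR adjusted p = 0.036). MAFF lost its call in 9 of 18 alternative fits, with edgeR adjusted p up to 0.15 with both HBG1 sgRNA replicate 1 libraries left out, and SREBF1 in 3 of 18, up to 0.103 without HBG1 sgRNA DMSO replicate 2. The block called SREBF1 lower and MAFF and SREBF2, another sterol-responsive factor, higher (SREBF2 0.28, edgeR adjusted p = 0.00516 with the block and 0.0637 without it). NFE2L1 had a log2 fold change of -0.14 (SE 0.079, edgeR adjusted p = 0.339) and DDI2, the protease that activates it, 0.01 (SE 0.084). Of 6 ubiquitin and ubiquitin-activating genes none was called by the main edgeR fit. An unadjusted p under 0.05 was reached there by 1 of them and by 20.8% of all tested genes. DESeq2 and the block called UBB, a polyubiquitin gene, higher (0.27 with the block). Of 12 interferon and class I antigen genes none was called by the main edgeR fit or by DESeq2. In edgeR 3 of them had an unadjusted p under 0.05, which 20.8% of all tested genes reached. The block calls of this list were TAP1 (0.50) and B2M (0.21), both higher. TAP1, the peptide transporter next to PSMB9, had an edgeR adjusted p of 0.126 without the block. No gene of these 4 lists was called by edgeR or DESeq2 in the guide comparison or the interaction. At an unadjusted edgeR p under 0.05 there were 2 proteasome-bound factors and 1 control gene in the guide comparison and 1 control gene in the interaction. That p was reached by 6.27% of all tested genes in the guide comparison and by 2.86% in the interaction.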

How the data were processed

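Per the labels' protocols, 9 libraries were made from poly-T selected RNA with the NEBNext Ultra kit. The deposited values are the authors' whole-number read counts per Ensembl gene. The submitters' processing notes name STAR 2.7.3a, featureCounts, Subread 2.0.0, R 4.1.2, limma 3.34.9, edgeR 3.24.0, GRCh38 and hg38. The annotation release, strand setting and handling of multi-mapping reads are not given in the sources used here, which bears on the 29 members that overlap another annotated gene and the 12 with pseudogene copies (32 copies). Symbols and positions are from GENCODE 29.

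Counts were tested here with edgeR 4.0.16 in R 4.3.3 (glmQLFit, glmQLFTest), after filterByExpr at a minimum count of 10 and TMM scaling. All 9 libraries entered 1 fit with a mean per group, and Benjamini-Hochberg adjustment ran over all 23675 tested genes at a threshold of 0.05. SEs were derived from the fold change and its F statistic. The scripts were tested on simulated data. Alternatives covered other scalings, no filter, DESeq2 1.42.0, each library left out, an additive model of guide and treatment, and the replicate number as a block. No replicate pair was a repeat of 1 library (chi-square per gene 4.74 to 18.6). Same-numbered HBG1 sgRNA libraries deviated together (correlations of 0.553, 0.278 and 0.236 over 11668 genes, all above the limit of 0.1), so the numbers were taken to pair them. Replicates 2 and 3 were not separated from each other: rapamycin 2 correlated with DMSO 3 at 0.257 and rapamycin 3 with DMSO 2 at 0.191. These values also lie above the limit of 0.1, so it cannot decide how replicates 2 and 3 pair. Across guides under rapamycin the correlations were -0.066 and -0.072.

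Libraries held 19797409 to 31619671 counts, a depth that limits the precision of genes with low counts. Members and gene lists were chosen with earlier results of these data known. Values per library are given for called members, for the highest and lowest log2 fold change of each family, and for PSMB5 to PSMB10 and PSME1 to PSME4. Other pathway genes are named where called or where they are ADRM1, SEM1, POMP, NFE2L1, DDI2 or TAP1. Members named outside these rules illustrate a level or count.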

Additional observations from a re-analysis of the deposited data

Results flagged for a closer look

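PSMD10, a chaperone of cap base assembly, differed in sign between the 2 guides. Rapamycin was above DMSO in each of the 3 HBG1 sgRNA pairs, while both non-targeting rapamycin libraries, at 38.2 and 37.5 CPM, lay below the non-targeting DMSO library at 38.6 CPM. The difference between the 2 rapamycin changes was 0.20 on the log2 scale (SE 0.205, edgeR adjusted p = 1), a difference no larger than its own SE.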

How the results depend on the processing

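With rapamycin and the HBG1 sgRNA 6 genes were called, where 4.05% of all tested genes were called lower. They became 15 with the replicate block on the 6 HBG1 sgRNA libraries (9.62% of all) and 19 with the additive model (7.8% of all). DESeq2, which gave 44 of 46 an adjusted p, called 11 (7.89% of all). With both replicate 1 libraries left out, an alternative chosen after seeing the data, 11 were called (5.17% of all). Leaving out each library in turn gave 2 to 11 calls, where 1.66% to 4.42% of all tested genes were called lower. The median log2 fold change of the members was then -0.20 to -0.096, the latter without HBG1 sgRNA rapamycin replicate 2. No low-count filter gave 9 calls, where 3.14% of all genes were called lower. Upper-quartile and total-count scaling gave 4 each, where 2.84% and 3.17% of all genes were called lower. The lower share of all called genes was 45.1% and 52.1% with these 2 scalings against 59.6% with TMM. Every member called in any of these fits was lower, and the cause of the differing counts was not tested. PSMB2 and PSMD2 lost their calls under 11 and 9 of 18 alternatives. The guide comparison and the interaction gave 0 calls in every alternative run, the replicate block included. The interaction without the non-targeting DMSO library was not run, as it cannot be formed. Where an arm was left with 1 library, that library was assumed to vary like the other groups. Depth limits PSMA8, PSMB8, PSMB9 and PSMB11, whose counts are low.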
